A study of Bos taurus with 4 samples.

Results

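Crem encodes cyclic AMP response element modulator, and the array carried 2 cDNA clones of it. They were found as all library clones whose only gene symbol in the platform annotation is Crem, 2 of 35960 library clones, and the scanner tables title both "cAMP responsive element modulator" under 1 UniGene cluster. Crem is 1 of 11835 genes that the annotation names by a single symbol on this array. The gene was picked because its ratios on these same arrays stood out, so its ratios are described here and carry no test.

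Bovine chromaffin cells, the catecholamine-secreting cells of the adrenal medulla, received 100 ng/ml PACAP in culture for 6 h at 37 C. PACAP is a neuropeptide whose receptor couples to adenylate cyclase. Total RNA of the PACAP-treated cells carried Cy5 and total RNA of control cells of the same repeat number carried Cy3, and each of 4 biological repeats was hybridised to 1 array of mouse clones. The dyes were never swapped, so a dye preference of a clone cannot be told apart from an effect of PACAP. The labels do not say whether the repeats came from separate animals, and their tissue entry reads brain beside the cell type chromaffin cells. Of 12 markers of chromaffin cells 8 were on the array, and the brightest clone of each exceeded 2 background SD in the PACAP channel on at least 3 arrays, as did 6 of them in the control channel. Clones for markers of adrenal cortex (7 of 7) and fibroblasts (7 of 7) exceeded that limit in the PACAP channel as well. So did 95.7 to 99.9% of all library spots on each array, and 46.5 to 99.8% in the control channel. Signal on a mouse clone thus does not separate these cell types.

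CREM belongs with CREB and ATF1 to a family of leucine zipper factors that bind the cyclic AMP response element, a short promoter motif. Splicing of the gene gives activators and repressors. An internal promoter that is itself responsive to cyclic AMP gives ICER, a short repressor that shuts down cyclic AMP target genes and its own promoter, and ICER is known as an early induced transcript in neuroendocrine tissue. The clones' sequences were not given in the sources used here, so which of these transcripts each clone detected is not known.

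Both Crem clones were brighter with PACAP than in control RNA on every array once the channels were scaled to each other. Clone AI850847 had a mean log2(PACAP / control) of 1.44 ± 0.35 (SD, n = 4 arrays), which is 2.71-fold. Clone AI846359 had 1.64 ± 0.43 (SD, n = 4 arrays), which is 3.13-fold. Of all 35110 tested clones, 9.59% were higher on 4 of 4 arrays, and 0.607% were so with a mean log2 ratio above 1, as both Crem clones were.

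In the channel intensities, clone AI850847 was the clearer spot. Its PACAP (Cy5) intensity above background was 2406.6, 1703.6, 1001.4 and 1037.4 on repeats 1 to 4, against control (Cy3) intensities of 414.0, 210.4, 208.5 and 1169.6. The PACAP signal was 106.0, 103.2, 76.4 and 19.2 times the SD of its local background, and the control signal 6.67, 1.77, 2.71 and 34.6 times. With 2 background SD as the limit of detection, PACAP signal was detected on 4 of 4 arrays and control signal on 3 of 4, with repeat 2 below it. Of all library spots, 95.7 to 99.9% exceeded this limit in the PACAP channel on each array. In the control channel 82.3, 53.6, 46.5 and 99.8% did so on repeats 1 to 4. On each of repeats 1 to 3 the PACAP intensity of this clone lay above its control intensity. On repeat 4 it lay below, at 1037.4 against 1169.6. These intensities are not scaled between channels, and the share of clones with this pattern was not counted.

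Clone AI846359 was dim in the control channel. Its PACAP intensity was 393.5, 475.7, 157.2 and 222.0 on repeats 1 to 4, against control intensities of 114.0, 92.1, 63.8 and 223.0. PACAP signal was 14.2, 41.0, 20.7 and 7.6 times its background SD and detected on 4 of 4 arrays. Control signal was 1.64, 1.03, 1.30 and 8.14 times and detected on repeat 4 alone, so the ratios of repeats 1 to 3 divide a measured PACAP signal by a control signal near background. Their size is uncertain for that reason. With every channel under 2 background SD raised to that limit before normalisation, a setting chosen after the data were seen, the mean was 1.26 for this clone and 1.38 for AI850847.

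**Figure D1:**
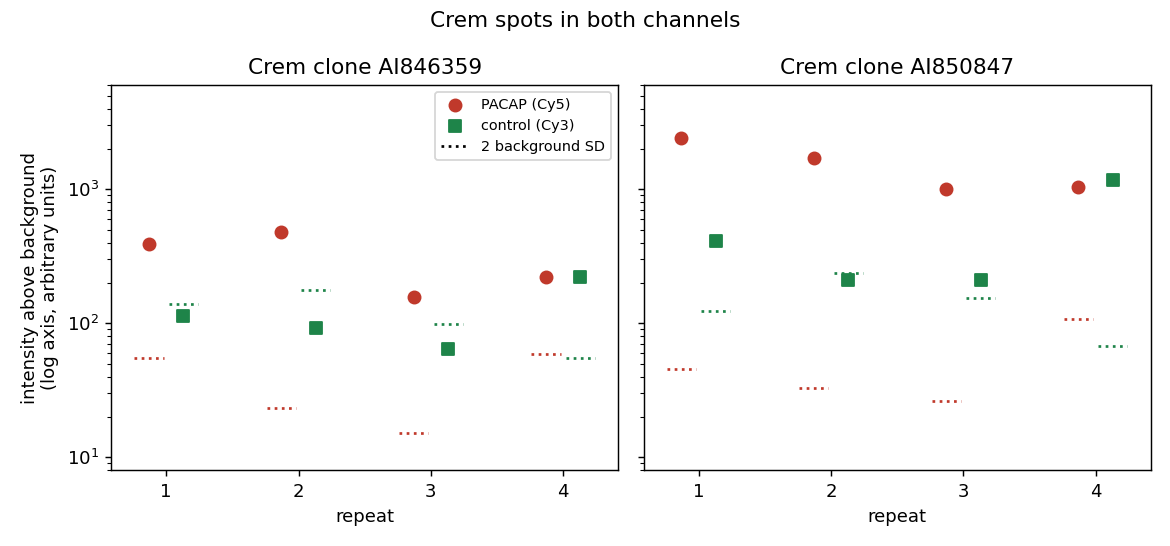
Intensity above local background (log axis, arbitrary units) of the 2 Crem clones on each repeat, PACAP in Cy5 as red circles and control in Cy3 as green squares. Dotted ticks mark 2 background SD of the same spot and channel. Control signal of AI846359 lies under its tick on repeats 1 to 3, and on repeat 4 the channels of both clones lie close together.

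Repeat 4 differed from the others in its channel balance. Before any scaling, the Cy5 over Cy3 ratio of AI850847 was 5.81, 8.10, 4.80 and 0.887 on repeats 1 to 4, and that of AI846359 was 3.45, 5.17, 2.46 and 0.996. On repeat 4 neither clone was thus brighter in the PACAP channel as scanned. The median log2 ratio of all library spots before scaling was 0.58, 0.54, 0.07 and -1.17 on the same arrays, so on repeat 4 both clones stood above an array on which the control channel was brighter as a whole. The direction of Crem on repeat 4 therefore rests on scaling the channels to each other, whereas on repeats 1 to 3 it was present before scaling and exceeded the array median.

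The authors' deposited ratios, which divide the Cy5 by the Cy3 mean and by 1 calibration factor per array, were above 1 for both clones on every array. For AI850847 they were 3.45, 4.10, 3.14 and 2.05, and for AI846359 2.05, 2.62, 1.61 and 2.30. The dimmer clone thus had the larger mean after loess, which follows the brightness of a spot, and the smaller mean with 1 factor per array, at 1.08 ± 0.30 against 1.63 ± 0.43 on the log2 scale (SD, n = 4 arrays).

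After loess the log2 ratios of AI850847 were 1.66, 1.77, 1.29 and 1.02 on repeats 1 to 4. Those of AI846359 were 1.55, 2.14, 1.78 and 1.10. Repeat 2 was highest and repeat 4 lowest in both. Among the tested clones with a value on the array, 0.179, 1.11, 6.51 and 1.91% had a higher ratio than AI850847 on repeats 1 to 4, and 0.236, 0.334, 2.33 and 1.44% had a higher ratio than AI846359. Both clones were least far out on repeat 3, where the quartiles of all tested clones were -0.62 and 0.55, against -0.34 and 0.30 on repeat 1. By the mean over arrays 33 clones lay above AI850847 and 16 above AI846359. That rank depends on the processing: under median centring without loess 44 and 440 clones lay above them, and 853 and 935 did in the centred log2 ratios of the series table. Without repeat 1 it was 134 and 41 clones, and without repeat 2 it was 92 and 52.

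**Figure D2:**
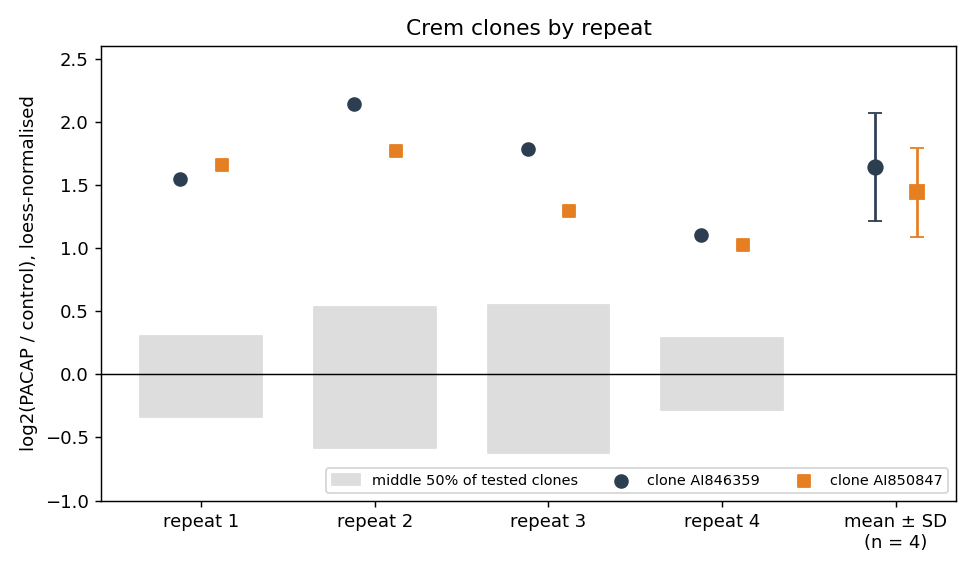
Loess-normalised log2(PACAP / control) of both Crem clones on each repeat, with the mean ± SD over 4 arrays at the right. Grey boxes span the middle 50% of all tested clones on the array. All 8 values lie between 1.02 and 2.14, above the boxes.

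After loess the 2 clones lay close together on each array, with control signal of AI846359 under the detection limit on repeats 1 to 3. AI846359 minus AI850847 was -0.11, 0.36, 0.50 and 0.08 on repeats 1 to 4, with a mean of 0.21 ± 0.27 (SD, n = 4 arrays), a gap smaller than its own spread. Under median centring without loess the order turned, with AI846359 at 1.21, 1.83, 1.23 and 1.16 and AI850847 at 1.96, 2.48, 2.19 and 1.00 on repeats 1 to 4. In the centred log2 ratios of the series table repeat 1 had 2.74 for AI846359 and -1.76 for AI850847. The clones share RNA and labelling on each array, so they are no replicates of the treatment. They were printed apart, in blocks 10 and 31 of 48. The mean of both after loess was 1.61, 1.96, 1.54 and 1.06 on the 4 repeats, or 1.54 ± 0.37 (SD, n = 4 arrays).

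The medians of the spots around them lay below the Crem clone on every array. The 8 neighbours of AI846359 had median log2 ratios of -0.12, -0.08, -0.21 and 0.27 on repeats 1 to 4, and the highest of them had 2.05 on repeat 3, above the Crem clone there. AI850847 had 4 or 5 neighbouring spots with an area, with medians of 0.17, -0.59, -0.02 and 0.26 and a highest value of 1.22. Spot areas of the Crem clones were 111 to 130 pixels, against array medians of 98 to 115.

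Genes with 2 clones show how often both clones of a gene were high. Of 3247 genes with exactly 2 tested clones and a value on every array, 69 (2.13%) had both clones higher on all 4 arrays, Crem among them. In 4 of the 3247 genes (0.123%) both clones had a mean log2 ratio above 1, and 1 gene had both below -1. The count of genes with both above 1 was 6 without repeat 1, 8 without repeat 4, 2 with channels raised to 2 background SD, 25 under median centring and 146 in the centred log2 ratios of the series table. The 4 were Tac1, the substance P precursor (1.72 and 2.79), Crem (1.44 and 1.64), the membrane protein gene Tm4sf1 (1.18 and 1.39) and the coiled-coil gene Ccdc153 (1.05 and 1.23). The last 2 were named after their values were seen. The 2 clones of a gene had means of opposite sign in 45.8% of the genes. The median absolute gap between a gene's clones after loess was 0.36, and 30.9% of genes had a gap smaller than the 0.21 of Crem. Under median centring the Crem clones had means of 1.36 and 1.91, a wider gap, and the gaps of other genes were not compared in that setting. The place of Crem on this scale follows from the values that chose it and is a description only.

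**Figure D3:**
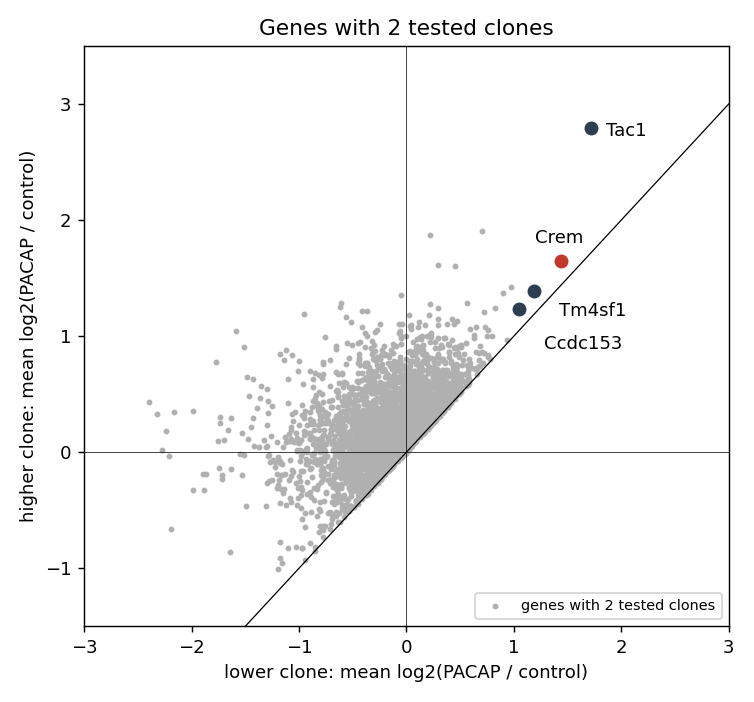
Mean log2(PACAP / control) over 4 arrays of the lower clone (horizontal) and the higher clone (vertical) for 3247 genes with 2 tested clones, with the line of equality. Crem (red) and Tac1, Tm4sf1 and Ccdc153 (dark) are the 4 genes with both clones above 1.

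No clone passed a test across the array. Limma called 0 of 35110 clones (0.0%) at an adjusted p under 0.05, with 3.92% higher and 6.46% lower at an unadjusted p under 0.05. The brightest clones of the 11740 named genes are a part of these clones and keep the same adjusted p. That 0 of them (0.0%) were called therefore follows, and so does the 0 in each list below. Of these named genes 4.33% were higher and 4.53% lower at an unadjusted p under 0.05, and the median log2 ratio was 0.03.

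None of the measured relatives of Crem was called. Of 29 other genes of the CREB, ATF and CREM family and its coactivators, 17 were measured, and limma called 0 higher and 0 lower. At an unadjusted p under 0.05 there were 0 higher and 1 lower, against 4.33% and 4.53% of named genes. The median log2 ratio was -0.02. By the brightest clone 1 was higher and 2 were lower on all 4 arrays, against 11.3% and 7.87% of named genes. The gene lower at an unadjusted p under 0.05 was Creb3l2, an endoplasmic reticulum-bound relative. It had -0.91 ± 0.75 (SD, n = 4, limma adjusted p = 0.454), on spots of 39.5 pixels at the median. Crebrf, a regulator of the Creb3 proteins, had 0.65 ± 0.60 (SD, n = 4), and 0.42 without repeat 3. The coactivator Ep300, an acetyltransferase, had 0.49 ± 0.57 (SD, n = 4), and 0.25 without repeat 2.

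By clone, the 17 genes had 34 clones with mean log2 ratios between -0.91 and 1.36 and a median of 0.08, against -0.01 over all tested clones. All 34 lay below both Crem clones. Of these clones 3 were higher and 3 lower on all 4 arrays, against 9.59% and 8.25% of all tested clones. Creb1, the CREB activator itself, had 3 clones, at 0.24 ± 0.23, 0.03 ± 0.46 and 0.72 ± 0.64 (SD, n = 4 each). Creb3, a membrane-bound factor, had clones at -0.08, 0.58 and 1.36, and the highest of them had a SD of 1.55 over the arrays, with -0.07 on repeat 1. Atf3, a stress-induced repressor, had -0.05 ± 0.28 and Atf4, the effector of the integrated stress response, 0.15, -0.05 and -0.38 in its 3 clones. Of the 9 relatives with more than 1 clone, 6 had clones of both signs. A difference between Crem and its relatives was not tested.

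**Figure D4:**
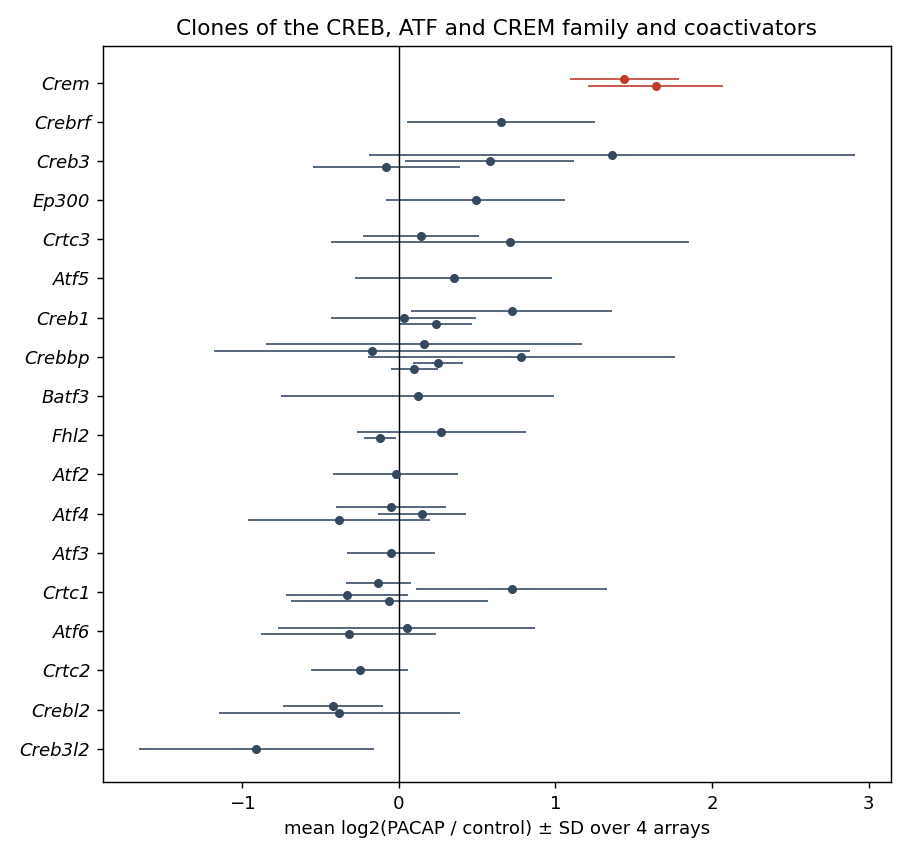
Mean log2(PACAP / control) ± SD over 4 arrays for each clone of the 18 measured genes of the CREB, ATF and CREM family and coactivators, with several points where a gene has several clones. The 2 Crem clones (red, top) are at 1.44 and 1.64, and the highest clone of another gene, of Creb3, is at 1.36 with the widest spread.

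Early cyclic AMP response genes are transcribed within minutes to hours of a rise in cyclic AMP. Of 40 listed, 29 were measured, 0 were called in either direction, and the median log2 ratio was 0.02. At an unadjusted p under 0.05, 2 were higher and 1 lower, against 4.33% and 4.53% of named genes. The 2 were Dusp6 at 1.00 ± 0.50 and Dusp5 at 0.65 ± 0.27 (SD, n = 4 each; limma adjusted p = 0.454), both phosphatases of ERK kinases. Control signal of the Dusp6 clone was detected on 2 of 4 arrays. Fosl1, an AP-1 subunit, had 0.55 ± 0.35 (SD, n = 4) and was higher on all 4 arrays. Of the 29 measured genes 3 were higher and 2 lower on all 4 arrays, against 11.3% and 7.87% of named genes. Homer1, a synaptic scaffold gene, was the lower one, at -2.07 ± 1.70 (SD, n = 3), on spots of 12 pixels at the median.

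Neuroendocrine genes with a known cyclic AMP response element or cyclic AMP response included 14 measured of 20. Limma called 0 in either direction, and the median was 0.17. On all 4 arrays 4 were higher and 2 lower, against 11.3% and 7.87% of named genes. At an unadjusted p under 0.05, 4 were higher and 0 lower, against 4.33% and 4.53% of named genes. The 4 were Tac1 at 1.72 ± 0.33, Scg2 at 1.84 ± 0.84, Penk, the enkephalin precursor, at 0.86 ± 0.35 and the granule protein gene Chgb at 0.71 ± 0.56 (SD, n = 4 each; limma adjusted p = 0.454 to 0.467). Chgb had -0.11 on repeat 4, and its other clone had a mean of 0.255. Control signal was detected on 1 of 4 arrays for the Tac1 clone and on 2 of 4 for the Scg2 clone, which is titled patched homolog, against its symbol. After loess Tac1 and Scg2 were the 2 measured genes of this list with a higher mean than AI850847. Under median centring both, at 1.59 and 1.73, lay below the 1.91 of AI850847, and Penk had 1.80 and Chgb 1.65. With channels raised to 2 background SD Tac1 had 0.93, against 1.38 for AI850847. These are values of genes that had already stood out on these arrays.

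Genes that CREM activates in mouse spermatids had 6 measured of 19, with 0 called and a median of -0.05. At an unadjusted p under 0.05 there were 0 in either direction, against 4.33% higher and 4.53% lower among named genes. Odf2, a sperm tail protein gene, had -0.10 ± 0.38, Hspa1l, a testis heat shock gene, -0.10 ± 0.57, and Acr, the acrosomal protease gene, 0.08 ± 0.18 (SD, n = 4 each). Hsf2, a heat shock transcription factor, had -1.16 ± 2.07 (SD, n = 3), on spots of 25.5 pixels at the median. Its value rested on repeat 3: it was 0.00 without that array and -1.99 without repeat 1.

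Of the machinery that makes, senses and removes cyclic AMP, 35 of 46 genes were measured. Limma called 0 in either direction, and the median was 0.02. At an unadjusted p under 0.05, 3 were higher and 5 lower, against 4.33% and 4.53% of named genes. Prkar2a, a regulatory subunit of protein kinase A, which phosphorylates CREM activators, had 0.65 ± 0.34 (SD, n = 4), with control signal detected on 1 of 4 arrays. Akap9, an anchoring protein of that kinase, had 1.48 ± 1.32 (SD, n = 4), from a clone titled as weakly similar to myosin heavy chain. Adcy6, an adenylate cyclase, had -0.68 ± 0.31 (SD, n = 4), and 0.02 in its other clone. Pde3b, a cyclic nucleotide phosphodiesterase, had -2.16 ± 1.21 (SD, n = 3), on spots of 20 pixels at the median.

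The profiles nearest to AI850847 were sought among 21046 clones of 11450 other named genes, as the Euclidean distance over the 4 log2 ratios. The other Crem clone lay at 0.63, against a median of 3.01 for the clones compared, and 1 clone of another gene was nearer. That was Cfap36, a cilium protein gene, at a distance of 0.59 with log2 ratios of 1.12, 1.76, 1.36 and 1.25. Next came Tm4sf1 at 0.72, Atp9b, a phospholipid-transporting ATPase gene, at 0.73, the deubiquitinase gene Uchl3 at 0.75 and Canx, the chaperone calnexin, at 0.76. The other clone of Cfap36 had 0.89, that of Tm4sf1 1.18, and the 5 other Canx clones 0.32 to 0.56. The clone nearest in profile for Canx is titled RIKEN cDNA 1110069N15 gene. With 4 arrays, a near profile says only that a clone was about as high on each of them. Crem was chosen from these ratios, so the nearness of its 2 clones follows in part from that choice. Distances were taken after loess only.

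The 4 arrays differed in quality. Median PACAP intensity over library spots was 102.8 to 415.6 and median control intensity 130.8 to 579.3. PACAP signal exceeded 2 background SD on 95.7 to 99.9% of spots, against 46.5 to 99.8% for control. Across clones, which are not independent, the log2 ratios had a Pearson's r of 0.219 to 0.372 among repeats 1 to 3 and -0.125 to -0.002 for repeat 4 with each of them. Without repeat 4 the mean of AI850847 was 1.57 and that of AI846359 was 1.83.

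Both clones kept a mean log2 ratio of at least 1.24 under each of 12 other processings. In the deposited log2 ratios of the series table, which subtract the background a second time and floor the result at 1, AI850847 had 3.00, 9.70, 9.27 and 1.00 on repeats 1 to 4, against array medians of 4.77, 5.56, 4.29 and -0.38. After that second subtraction its control signal was 172.0 on repeat 1 and 998.3 on repeat 4, and below 0 on repeats 2 and 3, where the floor of 1 took its place. Centred on the array median it was thus -1.76 on repeat 1, the 1 value of either clone in any processing that was below 0.

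**Figure D5:**
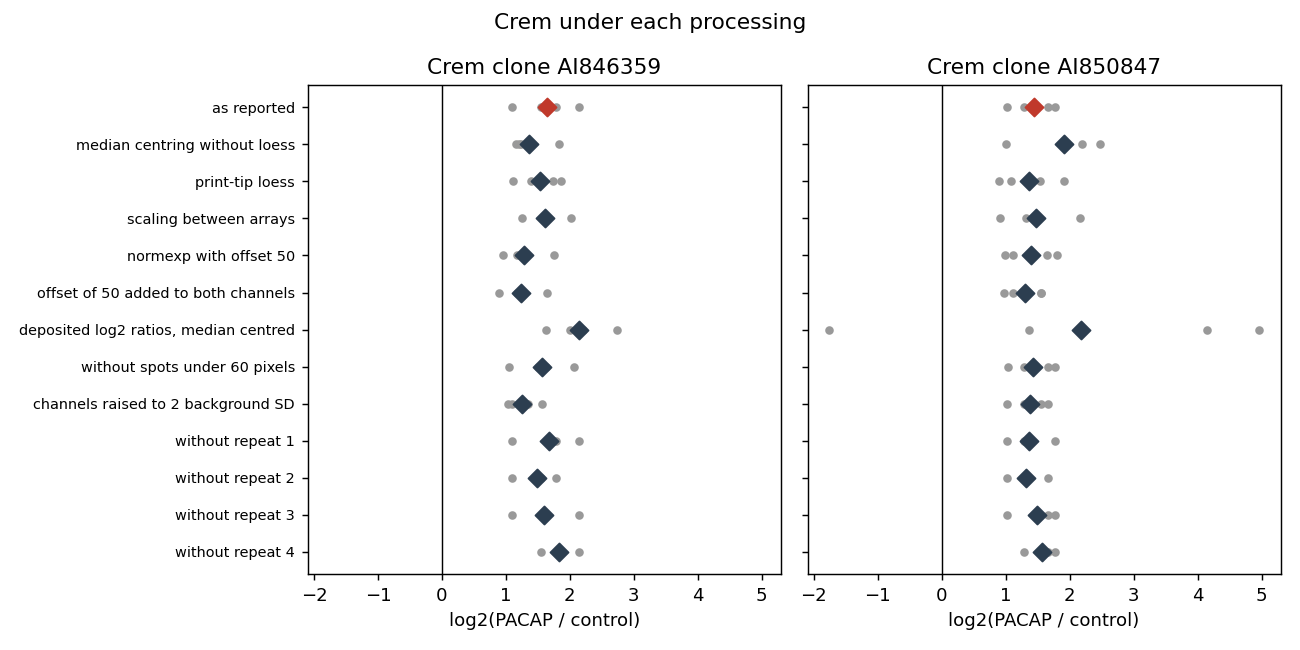
Mean log2(PACAP / control) of each Crem clone (diamonds, red as reported) and its single arrays (grey dots) under each processing. Means lie between 1.24 and 2.18, and the single value under 0 is AI850847 on repeat 1 in the deposited log2 ratios.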

How the data were processed

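Per the file headers, each spot has linear intensities of both dyes with their local background and its SD. No source used here names the scanner software. Background had already been taken off the mean intensity as deposited: total over mean plus background gave 113.8 to 125.8 pixels per spot, against up to 335.1 for the mean alone in a box of 256. Per the file headers a ratio, a quality score and the spot area follow, and the area is read here in pixels. The deposited ratio is Cy5 over Cy3 divided by a factor of 1.6859, 1.9737, 1.5295 and 0.4324 on repeats 1 to 4. The deposited log2 ratios of the series table were matched by recomputation (Cy5 over Cy3, second background subtraction, floor of 1, the factor, no centring). They were joined to spots by plate position, where the median difference over 4 arrays was under 0.1, which held for 35695 of 35873 entries. The first entry of each plate was found by matching these same values, so that agreement follows in part from the join. Of the joined entries 92.2% differed by under 0.1 on all 4 arrays. Of library spots, 22477 had 1 symbol, 1111 several and 12508 none.

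After a floor of 1 on the intensities, log2(Cy5 / Cy3) was put through global loess within each array (limma 3.58.1, R 4.3.3), without further background correction. Spots without area were dropped and spots of 1 clone averaged. Clones above 2 background SD in 1 channel on at least 3 arrays were tested, 35110 of 35960, with lmFit and eBayes (mean against 0, 2-sided) and Benjamini-Hochberg adjustment over all of them. A gene with several clones is represented by the brightest. The fit was also run on simulated ratios with independent noise for each clone and array. These do not mimic dim control spots or correlations between repeats, so that run says nothing on either. Crem, the 5 lists and the tests were chosen with earlier results of these data known. Named are both Crem clones, the 4 genes of smallest p in each list (Crem 1 of them in its family) and the 5 nearest profiles; Creb1, Creb3, Atf3 and Atf4 were added after their values were seen. Alternatives varied normalisation, background, spot size, filter and arrays. The number of arrays limits the precision, and p-values measure the spread between these arrays, which may be technical. Python 3.11.15, pandas 2.3.3, numpy 2.4.6 and matplotlib 3.10.9 were used.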

Additional observations from a re-analysis of the deposited data

Results flagged for a closer look

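The values of 29 sets of 4 arrays were searched for an array standing apart from the other 3. Chance alone does so in about 1 of 20 sets. Hspa1l was the 1 set found: its log2 ratio on repeat 2 was -0.94, while the remaining arrays lay between 0.11 and 0.30. For each Crem clone, PACAP intensity, control intensity, the loess log2 ratio and the deposited log2 ratio were searched, and no array met the criterion.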

How the results depend on the processing

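AI846359 moved by more than its SD only in the deposited log2 ratios, at 2.14, and AI850847 there, at 2.18, and under median centring without loess, at 1.91. Leaving out 1 array gave 1.48 to 1.83 for AI846359 and 1.32 to 1.57 for AI850847. Among the genes with 2 clones, 0 to 2 had a higher lower clone than Crem in each setting but median centring, with 7, and the deposited log2 ratios, with 8. Limma called 371 clones, all lower and Homer1 the 1 list gene among them, from the deposited log2 ratios, and 3 with trend and robust moderation (Dclk1, Dus1l and the unnamed C80571, named after their values were seen); other settings called 0. At an unadjusted p under 0.05 the 3647 clones became 6099 under median centring and 1834 to 5149 with 1 array left out, and the 16 list genes 7 to 13 with 1 array left out. From the deposited log2 ratios Crebrf turned to -0.17, Penk to -0.56, Chgb to -1.30 and Odf2 to 2.16. Odf2 was also 0.03 under median centring, 0.11 under print-tip loess and 0.07 without repeat 3, with -0.21 to 0.07 when 1 array was left out. Prkar2a turned to -0.11 with channels raised to 2 background SD, and leaving out 1 array gave Hspa1l -0.23 to 0.19 and Acr -0.01 to 0.12, both turned without repeat 2. The cause of these turns was not tested. Gene by gene, only the 19 named list genes other than Crem were followed. The other named list genes kept their sign in each setting that gave a value. Tac1 had 0.93 to 2.90, Scg2 1.47 to 3.30, Dusp6 0.71 to 1.77 and Fosl1 0.40 to 1.33. Creb3l2 had -1.95 to -0.47, Akap9 0.72 to 2.04 and Adcy6 -1.40 to -0.38. Dusp5 had 0.45 to 0.77 and Ep300 0.25 to 0.69. Homer1 had -7.07 to -1.57 and Pde3b -5.02 to -1.56. Hsf2 lay between -4.14 and 0.00. Homer1, Pde3b and Hsf2 had no value without spots under 60 pixels. The ratio within an array already pairs the PACAP and control RNA of 1 repeat, so the fit reported is the paired one. Control signal near background leaves the size of the ratios of AI846359 uncertain.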
